A study of Mus musculus with 18 samples.

Results

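The genes described here encode the ligands and receptors of transforming growth factor beta (TGF-beta) and 2 of its feedback inhibitors. They are the ligand genes Tgfb1, Tgfb2 and Tgfb3, the receptor genes Tgfbr1, Tgfbr2 and Tgfbr3, and the inhibitor genes Smad7 and Skil. Members were chosen by gene symbol from a table of 55450 genes, and all 8 were present once. Expression was measured by RNA sequencing in 3 established mouse cancer lines in culture, the breast carcinoma line 4T1, the colon line MC38 and the Lewis lung carcinoma line LLC. All lines were labelled wild type, and each gave 3 control libraries, with DMSO as vehicle, and 3 treated libraries. The treatment was sildenafil citrate at 100 µM, a drug that blocks the cyclic GMP phosphodiesterase PDE5. LLC cultures were exposed for 48 hours, and those of 4T1 and MC38 for 24, whether to vehicle or drug. The 4T1 cells grew in RPMI 1640 medium and the other lines in DMEM. Line and medium therefore cannot be told apart where 4T1 is compared, nor can line and exposure time where LLC is compared. The labels do not say whether replicate libraries were grown separately, and the error below is therefore that between libraries, which may be technical only.

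TGF-beta is secreted in a latent form bound to its own propeptide and must be released before it can signal. The active ligand binds the type II receptor (Tgfbr2), which phosphorylates the type I receptor (Tgfbr1), and this kinase then activates SMAD2 and SMAD3, which enter the nucleus with SMAD4. Tgfbr3 (betaglycan) is a coreceptor without a kinase that presents ligand, above all TGF-beta 2, to Tgfbr2. Smad7 blocks the type I receptor and recruits ubiquitin ligases to it, and Skil encodes SnoN, a corepressor that binds SMADs on target promoters. Both inhibitor genes are induced by the pathway itself. In carcinoma cells the pathway is known both for restraining growth and for favouring invasion.

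The promoters of 4 members were matched in the RefSeq table for GRCm38.p6, and the 250 bases before the start site are shown for them because their control levels differed between the lines to very unequal degrees. Tgfb1, Tgfb2 and Tgfbr1 had the same order of lines. Tgfbr2 differed by up to 24.8-fold between lines and Tgfbr1 by at most 1.58-fold. Capitals mark matches on either strand to 3 motifs. The GC box was searched as GGGCGG. The TATA box was searched as TATAAA. The short SMAD-binding element was searched as CAGAC. None of the marked matches overlaps another. The windows are Tgfb1 at chr7:25686752-25687001 (plus strand), Tgfb2 at chr1:186705990-186706239 (minus strand), Tgfbr1 at chr4:47352972-47353221 (plus strand) and Tgfbr2 at chr9:116175364-116175613 (minus strand).
Tgfb1: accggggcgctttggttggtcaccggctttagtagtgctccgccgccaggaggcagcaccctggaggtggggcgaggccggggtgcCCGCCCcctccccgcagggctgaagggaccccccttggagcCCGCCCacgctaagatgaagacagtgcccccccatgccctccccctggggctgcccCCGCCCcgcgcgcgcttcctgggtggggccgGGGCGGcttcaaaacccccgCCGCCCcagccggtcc
Tgfb2: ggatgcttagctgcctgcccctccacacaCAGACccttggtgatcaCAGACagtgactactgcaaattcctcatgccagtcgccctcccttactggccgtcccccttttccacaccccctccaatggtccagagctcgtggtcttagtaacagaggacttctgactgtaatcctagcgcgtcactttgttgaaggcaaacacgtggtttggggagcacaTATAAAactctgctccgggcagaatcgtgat
Tgfbr1: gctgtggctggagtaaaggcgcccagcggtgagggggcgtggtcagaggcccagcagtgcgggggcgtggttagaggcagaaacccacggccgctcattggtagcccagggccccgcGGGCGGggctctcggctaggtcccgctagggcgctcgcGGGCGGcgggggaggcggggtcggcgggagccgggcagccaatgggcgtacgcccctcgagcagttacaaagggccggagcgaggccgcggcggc
Tgfbr2: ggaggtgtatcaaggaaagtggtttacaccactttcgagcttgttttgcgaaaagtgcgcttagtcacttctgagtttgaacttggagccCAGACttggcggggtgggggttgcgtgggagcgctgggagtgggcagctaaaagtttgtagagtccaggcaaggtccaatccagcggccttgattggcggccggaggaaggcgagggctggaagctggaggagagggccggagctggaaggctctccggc
The Tgfb1 window held 5 GC boxes and was 75.2% G and C, and the Tgfbr1 window held 2 and was 74.8% G and C. The Tgfb2 window held no GC box, 1 TATA box and 2 short SMAD elements, and that of Tgfbr2 held 1 short SMAD element. The table lists a second Tgfbr1 start, whose window at chr4:47385966-47386215 is not printed, was 52.8% G and C and held no GC box and 1 short SMAD element. Of all 32851 promoter windows of this length, 32.7% held a GC box, 12.4% a TATA box and 42.2% a short SMAD element. The palindromic SMAD element GTCTAGAC was in 0.167% of all windows and in none of these 4. Such matches describe the letters only.

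Library totals ran from 26348654 to 61600646 counts, with the deepest libraries in 4T1. One LLC control library, replicate 3, stood apart from its group, with a mean chi-square per gene of 53.0 and 44.6 against the other 2 control libraries. Other pairs within a group lay between 2.87 and 15.5. The predicted gene Gm26917 was very abundant in MC38 and LLC and varied between libraries of a group, from 9660 to 29464 CPM in LLC controls. Its level fell with treatment in MC38, from 9376 to 14803 CPM in controls to 5064 to 6203 CPM, while in LLC the treated range of 5852 to 13768 CPM overlapped that of controls. The epithelial markers Epcam and Krt18 averaged 55.4 and 817.2 CPM in 4T1 controls. In MC38 and LLC controls Epcam was at 0, although Krt8 averaged 2547 and 211.9 CPM, beside 752.9 CPM in 4T1. Of 10 epithelial markers, 3 were at 0 in all MC38 controls and 8 in all LLC controls. Cldn4 averaged 52.6 CPM in 4T1 and 81.5 CPM in MC38. Of the mesenchymal markers, Vim averaged 2395, 4128 and 2056 CPM in 4T1, MC38 and LLC controls. Zeb1 averaged 0.224, 27.5 and 64.1 CPM there, and Zeb2 72.9, 20.4 and 85.0 CPM. The colon genes Cdx1, Cdx2, Vil1 and Krt20 were at 0 in MC38 controls. The lung genes Nkx2-1, Sftpa1, Sftpb, Sftpc and Scgb1a1 were at 0 in LLC controls. The lung gene Hopx averaged 6.64 CPM in LLC, but also 3.72 CPM in MC38. The colon gene Lgals4 averaged 0.937 CPM in MC38, but also 0.577 CPM in LLC. Of the mammary genes in 4T1, Wap, Lalba, Csn2, Elf5 and Pgr were at 0, while Gata3 averaged 60.6 CPM. Levels below are in CPM, counts scaled to the size of each library with factors from all 18 libraries, and log2 fold changes are given ± SE with n = 3 libraries per group.

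Untreated lines differed in every member. In each of the 3 contrasts between control groups all 8 members passed the test (edgeR's quasi-likelihood test, Benjamini-Hochberg adjusted p under 0.05) and no member's groups overlapped. Among all 15385 genes tested, 84.5% were called between MC38 and 4T1, 86.7% between LLC and 4T1 and 77.2% between LLC and MC38, and the groups of 87.4%, 87.5% and 77.7% did not overlap, so the counts do not set these genes apart. In MC38 4 members were higher and 4 lower than in 4T1, where 44.3% of genes were higher and 40.2% lower. In LLC 1 member was higher and 7 were lower than in 4T1, beside 43.7% and 42.9% of genes. Against MC38 the LLC counts were again 1 higher and 7 lower, beside 38.5% and 38.7% of genes. The sizes of the differences ranged widely, with a median absolute log2 difference over the members of 1.39, 2.15 and 1.24 in these contrasts, against 0.834, 0.917 and 0.693 over all genes tested. The 3 contrasts share control libraries and are not independent of each other. In bulk RNA, fewer cells expressing a gene and less RNA per cell cannot be told apart.

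**Figure D1:**
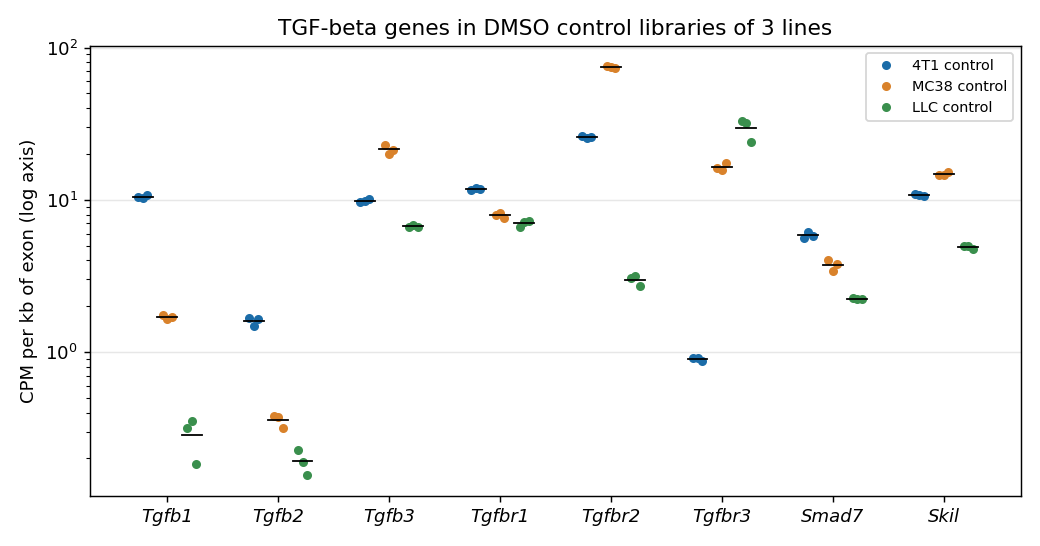
Control level of each gene in CPM per kb of merged exon (log axis), one point per library, coloured by line, with bars at the mean of 3 libraries. Tgfbr2 is highest in MC38 at 74.5 and lowest in LLC at 2.97, Tgfbr3 rises from 0.901 in 4T1 to 29.6 in LLC, and Tgfb1 falls from 10.4 in 4T1 to 0.283 in LLC.

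Per kilobase of exon, the balance among the members was unlike in the 3 lines. In 4T1 controls Tgfbr2 led at 25.9 ± 0.388 CPM per kb (mean ± SD), followed by Tgfbr1, Skil, Tgfb1 and Tgfb3 between 11.8 and 9.83, of which Skil and Tgfb1 overlapped. Tgfbr3 was last there at 0.901 ± 0.0221. In MC38 Tgfbr2 led by more, at 74.5 ± 0.650, with Tgfb3 next at 21.4 ± 1.43, while Tgfb1 stood at 1.71 ± 0.0507. In LLC the coreceptor gene Tgfbr3 led at 29.6 ± 4.91, whereas Tgfbr2 stood at 2.97 ± 0.217 and was below Tgfbr1 at 7.01 ± 0.352, which overlapped with Tgfb3 at 6.69 ± 0.0844. Tgfb2 was last in MC38 and LLC, at 0.357 ± 0.0344 and 0.191 ± 0.0363, and in LLC it overlapped with Tgfb1 at 0.283 ± 0.087.

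Among the ligands, Tgfb1 and Tgfb2 were high in 4T1 and low in LLC, and Tgfb3 was highest in MC38. Tgfb1, the most widely expressed ligand gene (chromosome 7, 25687002 to 25705077), stood at 52.3, 51.5 and 53.9 CPM in 4T1 controls, at 8.85, 8.34 and 8.64 CPM in MC38 and at 1.59, 1.76 and 0.932 CPM in LLC. The LLC values rest on 29 to 48 counts per library, the lowest in replicate 3. Tgfb1 was thus 5.83-fold lower in MC38 than in 4T1 (log2 -2.54 ± 0.088, adjusted p = 6.33e-12) and 35.0-fold lower in LLC than in 4T1 (log2 -5.13 ± 0.116, adjusted p = 6.63e-14). Tgfb2, whose product depends most on betaglycan (chromosome 1, 186622792 to 186705989), stood at 9.62, 8.61 and 9.58 CPM in 4T1, 2.19, 2.18 and 1.84 CPM in MC38 and 1.32, 1.10 and 0.900 CPM in LLC. It was 4.28-fold lower in MC38 and 7.90-fold lower in LLC than in 4T1, and LLC was 1.85-fold below MC38 (adjusted p = 0.000272).

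Tgfb3, the third ligand gene (chromosome 12, 86056745 to 86079041), did not follow that order. Its controls stood at 32.7, 33.1 and 34.0 CPM in 4T1, 77.4, 67.8 and 72.1 CPM in MC38 and 22.4, 22.9 and 22.5 CPM in LLC. It was 2.28-fold higher in MC38 than in 4T1 (adjusted p = 4.71e-11) and 3.17-fold lower in LLC than in MC38 (adjusted p = 2.85e-12). Per kilobase it was the most abundant ligand gene in MC38 and LLC, and close below Tgfb1 in 4T1.

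Sildenafil raised all 3 ligand genes in 4T1, raised Tgfb3 alone of them in LLC, and left none called in MC38. In 4T1, 5 of the 8 members rose, 2 fell and 1 was not called, in a comparison where 66.7% of the 13914 genes tested were called. MC38 had 3 members called, 1 up and 2 down, with 37.8% of 13363 genes called, and LLC had 3, all up, with 27.3% of 13561 genes called. The counts of 3 of 8 members in MC38 and LLC lie near that background. By direction, 33.5% of all genes tested rose and 33.3% fell in 4T1. The shares were 19.5% and 18.3% in MC38, and 15.1% and 12.2% in LLC. The median log2 change over the 8 members was 0.21 in 4T1, 0.02 in MC38 and 0.17 in LLC, beside 0.0023, 0.0040 and -0.0062 over all genes tested.

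**Figure D2:**
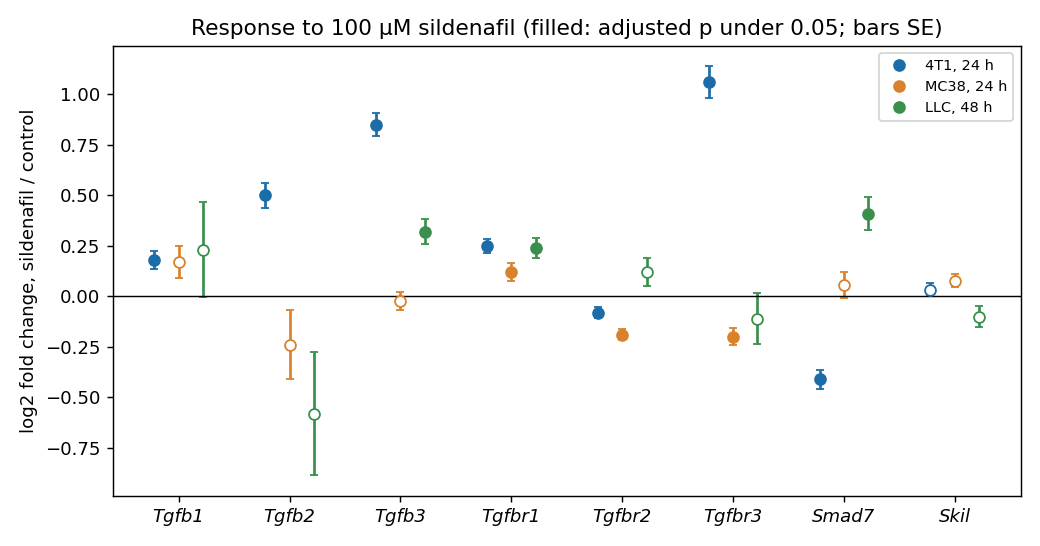
log2 fold change of each gene, sildenafil over control, by line, with SE bars and filled symbols where the adjusted p was under 0.05. Tgfbr3 at 1.06 and Tgfb3 at 0.85 in 4T1 are the highest points, and Smad7 lies at -0.41 in 4T1 and 0.41 in LLC.

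Tgfb3 had the largest ligand change in 4T1. Treated 4T1 libraries stood at 57.5, 58.3 and 66.5 CPM, all above the control maximum of 34.0, a 1.80-fold rise (log2 0.85 ± 0.0551, adjusted p = 3.06e-08). Treated LLC libraries at 27.8, 30.6 and 27.4 CPM also lay above every control, with a 1.25-fold rise (log2 0.32 ± 0.0615, adjusted p = 0.00476). Without LLC control replicate 3 the LLC value was 0.32 (adjusted p = 0.00115). In MC38 the treated libraries at 72.6, 72.1 and 69.8 CPM fell within the control range (log2 -0.02 ± 0.0443, adjusted p = 0.734). The response of Tgfb3 differed in size between each pair of lines when that difference was tested on all 18 libraries: MC38 lay 0.89 ± 0.0772 below 4T1 on the log2 scale (adjusted p = 7.33e-09), LLC lay 0.53 ± 0.0827 below 4T1 (adjusted p = 1.52e-05), and LLC lay 0.36 ± 0.0826 above MC38 (adjusted p = 0.00283).

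Tgfb2 rose in 4T1 to 13.0, 13.6 and 13.2 CPM, above every control, by 1.42-fold (log2 0.50 ± 0.062, adjusted p = 7.97e-06). It was scarce in the other lines. Treated MC38 libraries stood at 1.98, 1.79 and 1.51 CPM (log2 -0.24 ± 0.171, adjusted p = 0.299). Treated LLC libraries stood at 1.09, 0.480 and 0.681 CPM, from 14 to 32 counts (log2 -0.58 ± 0.305, adjusted p = 0.179). Leaving out sildenafil replicate 1 gave -0.94 in LLC, leaving out replicate 2 gave -0.34, and the value was -0.0484 with Gm26917 as a covariate, with no call in any of these. Both ranges overlapped their controls. The responses of MC38 and LLC were nevertheless lower than that of 4T1 when the difference was tested. The log2 differences were 0.75 ± 0.206 (adjusted p = 0.00594) and 1.08 ± 0.253 (adjusted p = 0.00131). That test shares an estimate of the spread across the lines. The SE of 0.253 is therefore below the 0.305 of the LLC response alone, and may understate the spread of LLC.

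Tgfb1 changed little. Treated 4T1 libraries stood at 59.2, 58.1 and 64.2 CPM, all above the controls, a 1.14-fold rise (log2 0.18 ± 0.0437, adjusted p = 0.00217). In MC38 the treated libraries at 9.62, 9.82 and 9.59 CPM lay above every control, but the gene did not pass the test (log2 0.17 ± 0.0775, adjusted p = 0.107). In LLC the treated libraries at 1.80, 1.68 and 1.58 CPM overlapped the controls (log2 0.23 ± 0.235, adjusted p = 0.494), and without control replicate 3 the value was -0.0081 (adjusted p = 0.98). No difference in response between lines was called for Tgfb1 (adjusted p from 0.843 to 0.908).

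**Figure D3:**
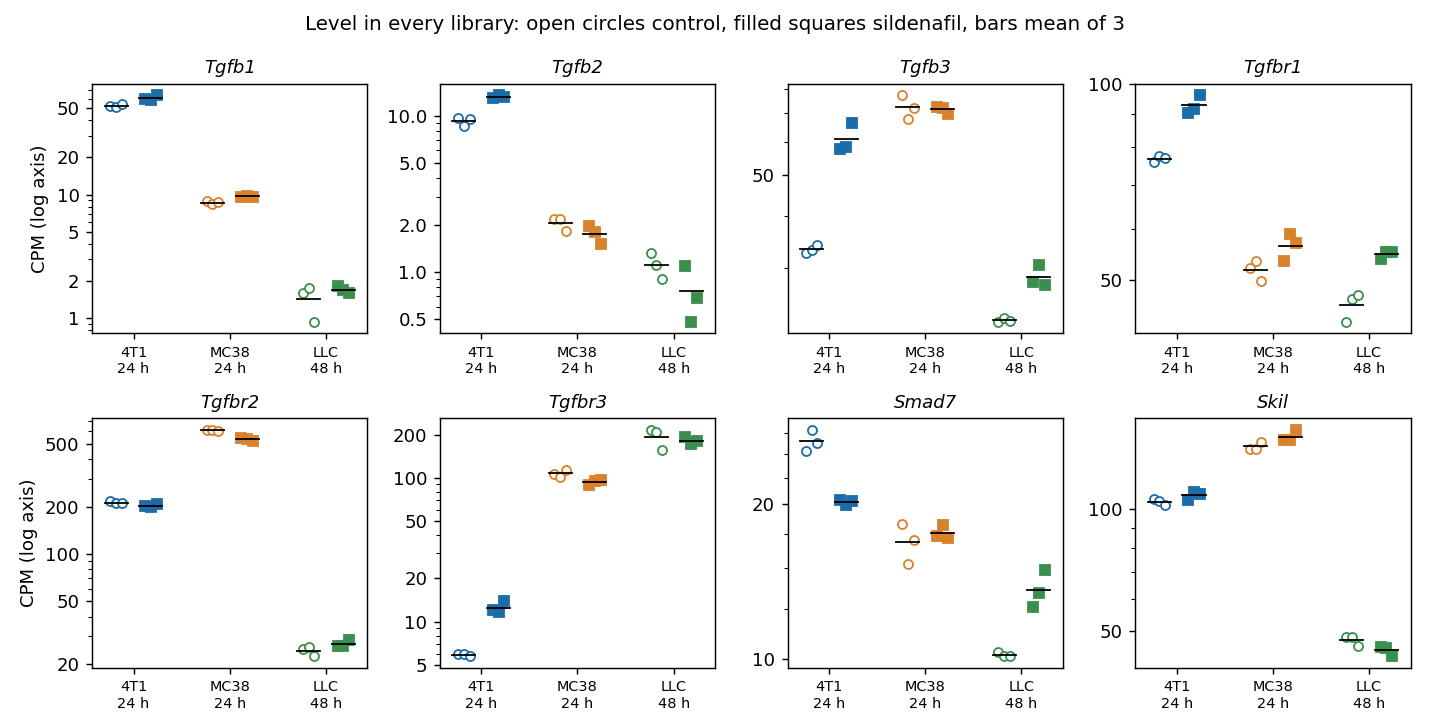
CPM of each gene in every library (log axis), open circles for control and filled squares for sildenafil, with bars at the mean of 3 libraries, by line and exposure time. In 4T1 the treated libraries of Tgfb3 (57.5 to 66.5 CPM) and Tgfbr3 (11.6 to 13.9 CPM) lie well above their controls, and Smad7 moves down in 4T1 and up in LLC.

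Among the receptors, the contrast between lines was largest for Tgfbr2 and Tgfbr3. Tgfbr2, the ligand-binding kinase (chromosome 9, 116084293 to 116175360), stood at 215.5, 209.2 and 211.2 CPM in 4T1 controls, 615.7, 609.1 and 605.2 CPM in MC38 and 24.9, 25.7 and 22.3 CPM in LLC. It was 3.01-fold higher in MC38 than in 4T1 (adjusted p = 9.05e-13) and 24.8-fold lower in LLC than in MC38 (log2 -4.63 ± 0.0536, adjusted p = 2.02e-16). Between LLC and 4T1 the gap was 8.25-fold (adjusted p = 3.55e-15).

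Tgfbr3 was lowest in 4T1 and highest in LLC (chromosome 5, 107106570 to 107289629). Controls stood at 5.97, 5.99 and 5.73 CPM in 4T1, 105.6, 102.2 and 114.1 CPM in MC38, and 216.3, 208.6 and 157.2 CPM in LLC. The gene was 19.0-fold higher in MC38 (log2 4.25 ± 0.138, adjusted p = 6.39e-09) and 34.8-fold higher in LLC (log2 5.12 ± 0.14, adjusted p = 1.72e-09) than in 4T1. LLC was 1.83-fold above MC38 (adjusted p = 0.000107). Its exons share 297 bases with the predicted gene Gm43422 on the same strand, and its counts in MC38 and LLC were fractional, so its level carries that uncertainty. Gm43422 was given 659 counts over all 18 libraries, against 2681 to 6390 for Tgfbr3 in each MC38 or LLC library.

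Tgfbr1, the kinase that phosphorylates SMAD2 and SMAD3 (chromosome 4, 47353222 to 47414931), was the member that differed least between lines. Controls stood at 76.0, 77.5 and 77.0 CPM in 4T1, 52.2, 53.6 and 49.8 CPM in MC38 and 43.2, 46.8 and 47.5 CPM in LLC. It was 1.42-fold lower in MC38 than in 4T1 (adjusted p = 1.85e-07) and 1.12-fold lower in LLC than in MC38 (log2 -0.16 ± 0.0471, adjusted p = 0.00637). DESeq2 did not make the last call (adjusted p = 0.0531), nor did a fit of protein-coding genes alone (adjusted p = 0.0752).

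Under sildenafil Tgfbr1 rose slightly in all 3 lines, while Tgfbr3 rose most in 4T1, from its low level, and fell in MC38. Treated Tgfbr1 libraries stood at 90.4, 91.6 and 96.2 CPM in 4T1, above every control (log2 0.25 ± 0.0354, adjusted p = 2.61e-05), and at 53.9, 55.3 and 55.2 CPM in LLC, again above every control (log2 0.24 ± 0.051, adjusted p = 0.00784). Without LLC control replicate 3 the LLC value was 0.27 (adjusted p = 0.000605), and with Gm26917 as a covariate it was 0.19 (adjusted p = 0.0537). In MC38 the treated libraries at 53.5, 58.8 and 57.1 CPM overlapped the controls, and the rise was 1.09-fold (log2 0.12 ± 0.045, adjusted p = 0.0476). That call was lost without MC38 control replicate 1 (adjusted p = 0.093) or 3 (0.158), without sildenafil replicate 2 (0.198) or 3 (0.105), with RLE factors (0.0561), DESeq2 (0.146) and the Gm26917 covariate (0.714). No difference in the Tgfbr1 response between lines was called (adjusted p = 0.068 for MC38 against 4T1, 0.958 for LLC against 4T1 and 0.141 for LLC against MC38). That between MC38 and 4T1 was called in 6 alternatives, with a stricter filter (0.0381), with protein-coding genes alone (0.0491), and without MC38 control replicate 3 (0.0428), MC38 sildenafil replicate 2 (0.0451), LLC control replicate 1 (0.0455) or LLC control replicate 3 (0.0479).

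Tgfbr2 fell in MC38, where it was most abundant. Treated MC38 libraries stood at 545.2, 535.2 and 523.8 CPM, below every control, a 1.14-fold fall (log2 -0.19 ± 0.0275, adjusted p = 5.19e-05) that was -0.25 with the Gm26917 covariate (adjusted p = 0.0335). In 4T1 the treated libraries at 202.8, 199.4 and 206.9 CPM lay just below the controls (log2 -0.08 ± 0.0285, adjusted p = 0.0229). This call was lost without 4T1 control replicate 1 or 3 or sildenafil replicate 1 or 2 (adjusted p from 0.0585 to 0.107), with no filter (0.0777), a stricter filter (0.1) or all 18 libraries in 1 fit (0.207). In LLC the treated libraries at 26.1, 25.8 and 28.3 CPM lay just above the controls without passing the test (log2 0.12 ± 0.0691, adjusted p = 0.223), and the gene was called with all 18 libraries in 1 fit (log2 0.14, adjusted p = 0.0321). The LLC response was higher than that of MC38 by 0.33 ± 0.0628 (adjusted p = 0.000522) and than that of 4T1 by 0.20 ± 0.063 (adjusted p = 0.0126), the latter lost without LLC sildenafil replicate 3 (adjusted p = 0.0562). The MC38 response lay 0.13 ± 0.0562 below that of 4T1 without passing the test (adjusted p = 0.0858), and this difference was called with DESeq2 (0.00845), the stricter filter (0.0485), only the lines compared (0.0216) and without LLC control replicate 3 (0.0263).

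Tgfbr3 rose in 4T1 to 12, 11.6 and 13.9 CPM, above every control, a 2.09-fold change (log2 1.06 ± 0.0781, adjusted p = 4.99e-08). Even then it stood far below the untreated level of the other lines. In MC38 the treated libraries at 89.6, 95.8 and 96.1 CPM lay below every control (log2 -0.20 ± 0.0422, adjusted p = 0.0021), a call lost with all 18 libraries in 1 fit (log2 -0.19, adjusted p = 0.166). In LLC the treated libraries at 191.3, 173.4 and 180.3 CPM fell inside the control range (log2 -0.11 ± 0.126, adjusted p = 0.536), and without control replicate 3 they lay below it (log2 -0.24, adjusted p = 0.000467). The 4T1 response exceeded that of MC38 by 1.27 ± 0.159 (adjusted p = 1.68e-05) and that of LLC by 1.17 ± 0.157 (adjusted p = 2.28e-05) on the log2 scale.

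Levels of Gm26917 and Tgfbr3 in the same libraries are given side by side. In LLC controls the 3 libraries had 29464, 20845 and 9660 CPM of Gm26917 beside 216.3, 208.6 and 157.2 CPM of Tgfbr3, and in MC38 controls 9376, 10985 and 14803 CPM beside 105.6, 102.2 and 114.1 CPM. In treated libraries Gm26917 stood at 13768, 7118 and 5852 CPM beside Tgfbr3 at 191.3, 173.4 and 180.3 CPM in LLC, and at 5064, 6203 and 5784 CPM beside 89.6, 95.8 and 96.1 CPM in MC38. The library with the most Gm26917 had the most Tgfbr3 in both lines, but the order of the others was not the same for the 2 genes. With Gm26917 as a covariate the Tgfbr3 change was 0.03 in MC38 (adjusted p = 0.903) and 0.15 in LLC (adjusted p = 0.224). Treatment accounted for 0.854 of the variance of that covariate in MC38 and for 0.463 in LLC, so in MC38 the fit can hardly separate them.

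**Figure D4:**
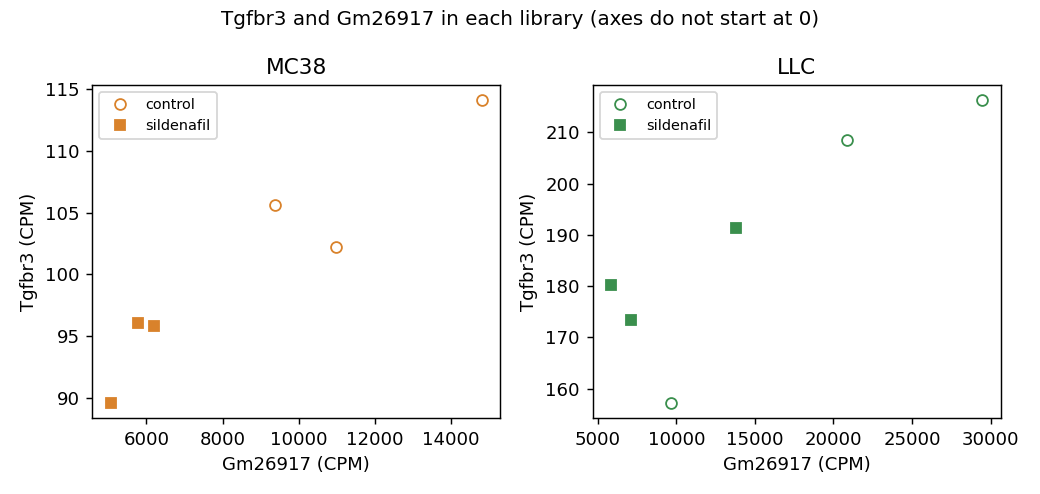
Tgfbr3 against Gm26917, both in CPM, one point per library in MC38 (left) and LLC (right), open circles for control and filled squares for sildenafil; neither axis starts at 0. The LLC control library with the least Gm26917 (9660 CPM) also has the least Tgfbr3 (157.2 CPM).

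The 2 feedback genes responded unlike each other. Smad7, which encodes the inhibitory SMAD (chromosome 18, 75367529 to 75395935), fell in 4T1, rose in LLC and was not called in MC38. Its controls stood at 25.4, 27.9 and 26.3 CPM in 4T1, 18.3, 15.3 and 17.0 CPM in MC38 and 10.3, 10.1 and 10.1 CPM in LLC. The baseline was 1.5-fold lower in MC38 (adjusted p = 1.96e-06) and 2.48-fold lower in LLC (adjusted p = 6.40e-10) than in 4T1.

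Treated 4T1 libraries stood at 20.4, 19.9 and 20.3 CPM of Smad7, below every control, a 1.33-fold fall (log2 -0.41 ± 0.0481, adjusted p = 4.41e-06). Treated LLC libraries stood at 12.6, 13.4 and 14.9 CPM, above every control, a 1.33-fold rise (log2 0.41 ± 0.081, adjusted p = 0.00552). The LLC value was 0.41 without control replicate 3 (adjusted p = 0.00193) and 0.35 with the Gm26917 covariate (adjusted p = 0.0443). In MC38 the treated libraries at 17.3, 18.2 and 17.2 CPM overlapped the controls (log2 0.06 ± 0.0666, adjusted p = 0.55). The 4T1 and LLC means were 26.5 and 10.1 CPM in controls and 20.2 and 13.6 CPM in treated cells. The responses differed between every pair of lines: MC38 exceeded 4T1 by 0.45 ± 0.0897 (adjusted p = 0.000331), LLC exceeded 4T1 by 0.82 ± 0.0943 (adjusted p = 2.21e-07) and LLC exceeded MC38 by 0.37 ± 0.0992 (adjusted p = 0.00883).

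Skil (chromosome 3, 31095058 to 31122577) was not called in any line by the fit within that line. In MC38 it was called without control replicate 3 (log2 0.0958, adjusted p = 0.0452) and with the replicate number as a block (adjusted p = 0.0267). Controls stood at 106.0, 104.6 and 102.5 CPM in 4T1, 141.0, 141.3 and 147.0 CPM in MC38 and 48.2, 48.3 and 45.9 CPM in LLC. LLC was thus 2.98-fold below MC38 (adjusted p = 2.69e-13) and 2.08-fold below 4T1 (adjusted p = 1.03e-11). Treated libraries stood at 105.6, 110.0 and 109.0 CPM in 4T1 (log2 0.03 ± 0.0317, adjusted p = 0.378), 148.0, 148.3 and 157.3 CPM in MC38 (log2 0.08 ± 0.0329, adjusted p = 0.0792) and 45.6, 45.4 and 43.2 CPM in LLC (log2 -0.10 ± 0.0513, adjusted p = 0.157). The MC38 and LLC groups did not overlap, with MC38 higher and LLC lower after treatment. The tested differences in response were small: LLC lay 0.14 ± 0.054 below 4T1 (adjusted p = 0.0462) and 0.16 ± 0.0542 below MC38 (adjusted p = 0.0317). Each of these calls was lost when single libraries were left out, with adjusted p up to 0.151 without 4T1 sildenafil replicate 2 and up to 0.11 without LLC control replicate 1 or 2. Both were also lost with no filter (adjusted p = 0.302 and 0.208) and with only the lines compared (0.0628 and 0.0631).

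Groups of 3 that did not overlap numbered 7 of the 8 members in 4T1, 4 in MC38 and 5 in LLC. Among all genes tested the shares of non-overlapping groups were 71.0%, 48.8% and 43.6%. Of the response differences, 4 members were called between MC38 and 4T1, 6 between LLC and 4T1 and 4 between LLC and MC38, where 34.6%, 42.0% and 22.3% of the 16040 genes tested were called. By direction these were 1 higher and 3 lower (background 17.9% and 16.7%), 2 higher and 4 lower (21.8% and 20.2%), and 3 higher and 1 lower (12.6% and 9.68%).

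Markers of other cell types were compared alongside. In 4T1 the summed level of 10 leukocyte markers went from 34.7 to 35.9 CPM in controls to 81.8 to 89.0 CPM in treated libraries, through Cd68 and Cd74, while Adgre1, Tyrobp and Cd3e were at 0 in both groups. The same sum also rose in the other lines, from 5.92 to 6.5 CPM to 9.86 to 10.6 CPM in MC38. In LLC it went from 2.61 to 3.18 CPM to 4.69 to 5.62 CPM. The summed level of 8 fibroblast markers went from 46.8 to 53.6 CPM to 96.9 to 110.4 CPM in 4T1 and from 1147 to 1181 CPM to 2211 to 2249 CPM in LLC. Of these markers 2 of 2 tested rose in 4T1 and 4 of 4 in LLC. The 4T1 sum lay almost wholly in Col6a1 and Pdgfra. Col3a1 and Lum were at 0 in 4T1 controls, and Pdgfrb, Dcn, Dpt and Fap averaged at most 0.0401 CPM. In LLC controls Fap, Dcn, Dpt and Lum were at 0. Most of the LLC sum was Col3a1, which averaged 1044 CPM in controls and 2001 CPM in treated libraries. Over all genes tested 33.5% rose in 4T1 and 15.1% in LLC. In MC38 the fibroblast sum went from 651.6 to 690.6 CPM to 595.6 to 614.7 CPM. There 2 of 5 tested fibroblast markers rose and 2 fell, beside 19.5% and 18.3% of all genes. The part of these markers in the changes of the TGF-beta genes was not tested.

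The wider pathway was read from lists of genes by role. Among proteins that hold latent TGF-beta or release it, the integrin gene Itgb5 rose in all 3 lines, by 0.44 ± 0.0322 in 4T1, 0.56 ± 0.0313 in MC38 and 0.54 ± 0.0433 in LLC (adjusted p = 5.2e-08, 2.46e-09 and 3.97e-05). In 4T1, 6 of 13 tested genes of this list rose and 2 fell, in MC38 4 of 15 rose and 3 fell, and in LLC 2 of 8 rose and none fell. Over all genes tested 33.5% rose and 33.3% fell in 4T1, 19.5% and 18.3% in MC38, and 15.1% and 12.2% in LLC. Ltbp1, which tethers the latent complex to matrix, fell in 4T1 from 476.1 ± 4.18 to 287.5 ± 0.326 CPM (log2 -0.75 ± 0.0268, adjusted p = 5.66e-11). Itgb3, a subunit of the alpha-v beta-3 integrin, rose in 4T1 from 1.56 ± 0.0764 to 6.21 ± 0.412 CPM (log2 1.96 ± 0.107) and in MC38 from 11 ± 0.598 to 18.3 ± 0.707 CPM (log2 0.73 ± 0.065). Thbs1, whose product can activate latent ligand, rose in 4T1 by 0.30 ± 0.0324 and fell in MC38 by 0.31 ± 0.0317. Emilin1, a matrix glycoprotein that binds the TGF-beta precursor, rose in LLC by 0.67 ± 0.0586 and in MC38 by 0.12 ± 0.0343.

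**Figure D5:**
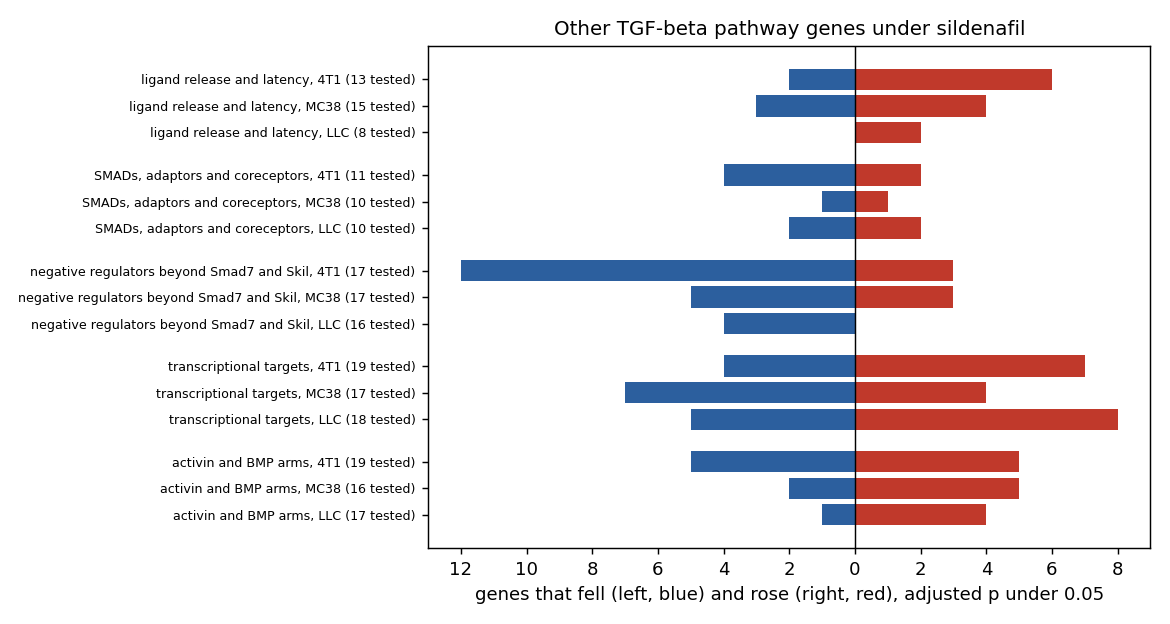
Number of genes of each pathway list that fell (left) and rose (right) under sildenafil at an adjusted p under 0.05, by line, with the number tested in the label. The longest bar is the list named negative regulators in 4T1, with 12 of 17 down and 3 up. That list also holds some genes that favour the pathway.

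In the list named negative regulators beyond Smad7 and Skil, 12 of 17 tested genes fell and 3 rose in 4T1, a median log2 change of -0.15, where 33.3% of all genes fell and 33.5% rose. In MC38 5 of 17 fell and 3 rose, and in LLC 4 of 16 fell and none rose, with medians of -0.03 and -0.06, beside 18.3% of all genes down and 19.5% up in MC38 and 12.2% and 15.1% in LLC. The list also holds genes that favour the pathway, which are counted here although they do not do what its name says. Among them are Usp15 and Usp4, deubiquitinases known to stabilise the type I receptor, and also Usp11 and Rnf111. Pmepa1, a target of the pathway whose product sequesters SMAD2 and SMAD3, fell in 4T1 from 54.1 ± 0.816 to 34.6 ± 0.912 CPM (log2 -0.66 ± 0.0362, adjusted p = 2.89e-09). Strap, which recruits Smad7 to the receptor, fell by 0.76 ± 0.0343 in 4T1 and by 0.31 ± 0.0292 in MC38. Usp15 fell in all 3 lines, by 0.52 ± 0.0287, 0.22 ± 0.0297 and 0.16 ± 0.0434, and Usp4 fell in MC38 by 0.18 ± 0.0305. Tgif1, a SMAD corepressor gene, rose in MC38 by 0.52 ± 0.0472 and fell in LLC by 0.33 ± 0.0511.

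Among SMADs, adaptors and coreceptors, 2 of 11 tested genes rose and 4 fell in 4T1, 1 of 10 rose and 1 fell in MC38, and 2 of 10 rose and 2 fell in LLC. Most of these shares lie near or below those over all genes (33.5% up and 33.3% down in 4T1, 19.5% and 18.3% in MC38, 15.1% and 12.2% in LLC). Smad2 fell in 4T1 from 68.5 ± 2.50 to 57.4 ± 0.439 CPM (log2 -0.28 ± 0.0363, adjusted p = 1.46e-05) and rose in MC38 by 0.12 ± 0.0415. Smad3 stood at -0.05 ± 0.0396 in 4T1 (adjusted p = 0.27), fell in MC38 by 0.13 ± 0.0328 and rose in LLC from 76.2 ± 1.73 to 103.4 ± 1.64 CPM (log2 0.42 ± 0.0442, adjusted p = 0.000189). Dab2, an adaptor between the receptors and SMADs, rose in 4T1 by 0.35 ± 0.041 and fell in LLC by 0.53 ± 0.114.

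Among known transcriptional targets, in 4T1 7 of 19 tested targets rose and 4 fell, in MC38 4 of 17 rose and 7 fell, and in LLC 8 of 18 rose and 5 fell, with medians of 0.12, -0.18 and 0.21. Over all genes 33.5% rose and 33.3% fell in 4T1, 19.5% and 18.3% in MC38, and 15.1% and 12.2% in LLC, so the 4T1 share of targets that rose is near the background. Ccn1, a matricellular gene, fell in 4T1 by 0.46 ± 0.0466. Bhlhe40, a transcriptional repressor gene, rose in 4T1 by 1.17 ± 0.0413 and in MC38 by 0.81 ± 0.0367, and Id2, an inhibitor of basic helix-loop-helix factors, rose in 4T1 by 1.27 ± 0.0637. In MC38 Cdkn1a, the gene of the cell cycle inhibitor p21, rose from 2.36 ± 0.0457 to 5.46 ± 0.485 CPM, and Tpm1, an actin-binding tropomyosin gene, fell by 0.30 ± 0.0316. In LLC Angptl4 rose from 1.61 ± 0.253 to 5.71 ± 1.08 CPM, Id1 from 6.13 ± 0.797 to 12.2 ± 0.574 CPM, and Col4a1, a basement membrane collagen gene, fell from 591.7 ± 17.9 to 427.4 ± 7.79 CPM. Many of these genes have other inputs, and the lists were drawn up with earlier results of these data known.

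The genes most like each member were found by Pearson correlation of log2 CPM, centred within line, over 18 libraries and 10303 genes. These are descriptions of shared library and treatment patterns. Tgfb3 was most like Ankrd44 and Ptgs1 (r = 0.977 for both), and Tgfbr3 most like Plxnd1 (0.977) and Phospho1 (0.969). For Tgfbr1 they were Apobr (0.956) and Arrdc3 (0.955), for Smad7 Cers2 (0.945) and Uhrf1 (0.94), and for Skil Chd6 (0.928) and Etl4 (0.881). Tgfb1 was most like Wdr62 (0.91), Tgfb2 most like Pfn2 (0.868) and Tgfbr2 most like Slc6a6 and Hs6st1 (0.87 for both). Among the members themselves the highest values were those of Tgfb3 with Tgfbr3 (0.83) and with Tgfbr1 (0.81), and the lowest that of Tgfb2 with Smad7 (-0.77).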

How the data were processed

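The authors deposited 1 table of RSEM expected counts per gene for 18 libraries, not normalized. The submitters' processing notes list RSEM 1.3.1, STAR 2.7.0f, cutadapt 1.18 and bcl2fastq 2.17, and the build mm10. In addition the labels' protocols name a stranded polyA kit. The strand setting of the counting is not given in the sources used here. Columns were matched to samples by library name, and all 55450 identifiers matched GENCODE M21, which gave positions and exon lengths.

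Expected counts were rounded and tested in R 4.3.3 by edgeR 4.0.16 (TMM scaling, default filter, robust quasi-likelihood F test), with Benjamini-Hochberg adjustment over all genes tested and a threshold of 0.05. Responses were fitted within each line on 6 libraries, baselines on the 9 control libraries, and differences in response on all 18. The fits on 9 and 18 libraries share an estimate of the spread across lines. The SE of a difference with LLC can therefore be below that of the LLC response alone. The SE was taken as the absolute log2 change over sqrt(F). CPM levels use TMM factors over 18 libraries, so a ratio of CPM means can differ slightly from a fitted change. The tests were also run on simulated counts, drawn with the spread that edgeR itself estimated from these data. Such a run cannot show how the tests deal with a library that stands apart, such as LLC control replicate 3.

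The members, the pathway lists and the tests were chosen with earlier results of these data known. The text names all 8 members, up to 4 genes per list and line with the smallest adjusted p, the gene of each list with the highest control level, and the genes most like each member. Not all of these are given. Ctgf and Cyr61 were matched as Ccn2 and Ccn1. Alternatives were RLE factors, DESeq2 1.42.0, no filter, a stricter filter (5 CPM in 3 libraries), protein-coding genes alone, each library left out, the replicate number as a block, 1 fit of all libraries, unrounded counts, the level of Gm26917 as a covariate, and only the lines compared. Gene correlations used log2(CPM + 0.5). Plots were drawn with matplotlib 3.10.9.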

Additional observations from a re-analysis of the deposited data

Results flagged for a closer look

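Differences in response to sildenafil between lines passed the test for 14 pairs of member and line contrast, given as log2 differences ± SE. Between MC38 and 4T1, both at 24 hours, they were -0.75 ± 0.206 for Tgfb2, -0.89 ± 0.0772 for Tgfb3, -1.27 ± 0.159 for Tgfbr3 and 0.45 ± 0.0897 for Smad7. Between LLC at 48 hours and 4T1 they were -1.08 ± 0.253 for Tgfb2, -0.53 ± 0.0827 for Tgfb3, 0.20 ± 0.063 for Tgfbr2, -1.17 ± 0.157 for Tgfbr3, 0.82 ± 0.0943 for Smad7 and -0.14 ± 0.054 for Skil. Between LLC and MC38 they were 0.36 ± 0.0826 for Tgfb3, 0.33 ± 0.0628 for Tgfbr2, 0.37 ± 0.0992 for Smad7 and -0.16 ± 0.0542 for Skil. The calls of Skil, and that of Tgfbr2 between LLC and 4T1, were lost in alternatives given above. Called changes with non-overlapping groups pointed in opposite directions in 2 lines for Smad7, down in 4T1 and up in LLC, and for Tgfbr3, up in 4T1 and down in MC38. Line and exposure time cannot be told apart in the contrasts with LLC, nor can line and medium in those with 4T1.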

How the results depend on the processing

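All 24 baseline differences of the members kept their direction in every alternative, and 358 of 360 values kept their side of the threshold. The exceptions are those of Tgfbr1 between LLC and MC38 given with the baseline. For the responses 324 of 349 values, and for the response differences 552 of 600, kept direction and side. With the Gm26917 covariate 1 member was called in MC38 in place of 3, and Tgfbr3 turned to 0.0263 in MC38 and 0.15 in LLC. That covariate reduced the calls over all genes from 5047 to 940 in MC38 and from 3702 to 2252 in LLC. With no filter the difference of Tgfbr1 between LLC and 4T1 was 0.00032. When single libraries were left out, values that changed sign were those of members not called: Tgfb3 in MC38 (-0.0661 to 0.0304), Smad7 in MC38 (-0.0087 to 0.12), Tgfb1 in LLC (-0.0081 to 0.41), and the differences of Tgfb1 between MC38 and 4T1 (-0.0692 to 0.00337), LLC and 4T1 (-0.19 to 0.23) and LLC and MC38 (-0.16 to 0.27), of Tgfbr1 between LLC and 4T1 (-0.0426 to 0.0288) and of Tgfbr3 between LLC and MC38 (-0.031 to 0.20). The cause was not tested. The calls over all LLC genes were 5994 without control replicate 3, 2299 without control replicate 1, 1999 without sildenafil replicate 2 and 1841 without sildenafil replicate 3.

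Control and treated libraries of one number did not deviate together in every pair (correlations from -0.1 to 0.26), and not every library matched its own number best. With 3 libraries per group this check cannot settle whether the numbers pair the libraries. With the replicate number as a block 7 members were called in 4T1, 4 in MC38 and 3 in LLC, with Skil added in MC38 (0.0764, edgeR adjusted p = 0.0267), and 9090, 5867 and 4078 genes in all. Without the block the calls over all genes were 9285, 5047 and 3702. The response differences kept 4, 6 and 4 called members under the block. The stricter filter removed Tgfb2 in MC38 and Tgfb1 and Tgfb2 in LLC, so those have no value there. Counts of 14 to 53 per library limit Tgfb1 and Tgfb2 in LLC.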

Other observations

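Genes of the activin and BMP arms, which share SMAD4 with TGF-beta, were called in both directions, in shares of the genes tested that are read against those over all genes. In 4T1 5 of 19 tested genes rose and 5 fell, in MC38 5 of 16 rose and 2 fell, and in LLC 4 of 17 rose and 1 fell. Over all genes 33.5% rose and 33.3% fell in 4T1, 19.5% and 18.3% in MC38, and 15.1% and 12.2% in LLC, so both 4T1 shares of the list are below the background. In 4T1 Bmp7, a BMP ligand gene, fell from 16.8 ± 0.943 to 9.38 ± 0.657 CPM (log2 -0.86 ± 0.067, edgeR adjusted p = 8.21e-08), and Fstl3, an activin antagonist gene, from 25.0 ± 0.704 to 14.9 ± 1.13 CPM (log2 -0.76 ± 0.0558). The activin type I receptor gene Acvr1b rose in 4T1 by 0.48 ± 0.0481 and in LLC by 0.25 ± 0.0614. In MC38 Inhba, which encodes the activin A subunit, fell from 97.4 ± 1.25 to 70.3 ± 3.02 CPM (log2 -0.47 ± 0.0361, edgeR adjusted p = 1.02e-07), and the BMP antagonist gene Grem1 rose by 0.29 ± 0.0537. In LLC the BMP type I receptor gene Bmpr1a rose from 97.3 ± 3.12 to 126.6 ± 3.73 CPM (log2 0.36 ± 0.0453, edgeR adjusted p = 0.00051).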
